A study of Mus musculus with 8 samples.

Results

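Claudins, connexins and cadherins are the membrane proteins of tight junctions, gap junctions and adherens junctions, and their transcripts were examined here in the small intestine of mouse embryos that lacked the transcription factor Rfx6. A gene was taken as a member when the array file named it Cldn, Gja, Gjb, Gjc, Gjd or Cdh followed by a number. This gave 66 genes of the 36084 on the array: 23 claudins, 19 connexins and 24 cadherins, measured by 75 probes. The symbol alone decided which genes were members, but the families were picked with earlier results of these data known. Relatives with other symbols (protocadherins, desmogleins, pannexins, the Cdhr genes) were outside the rule.

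The study compared 4 wild-type samples, labelled Rfx6+/+ and called controls here, with 4 samples labelled Rfx6-/-, all of small intestine collected at stage E18.5. The mutant line came from mice with a floxed Rfx6 allele (Rfx6f/+) bred to CMV-Cre mice, a Cre driver that is active in cells of the whole body. The resulting Rfx6+/- heterozygotes were then intercrossed. The knockout is therefore germline and in every tissue, and not restricted to the gut epithelium. The labels give neither the sex of the embryos nor whether a sample was 1 embryo or a pool, so p-values measure the spread between these samples, which may in part be technical.

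Claudins have several membrane spans and set which ions pass between epithelial cells, some by sealing the tight junction and others by forming a pore in it. Connexins assemble into channels that join the cytoplasm of neighbouring cells. Classical cadherins hold cells together through calcium-dependent contacts between like molecules and are anchored to actin by catenins. In the intestine, E-cadherin (Cdh1) and LI-cadherin (Cdh17) are epithelial, whereas VE-cadherin (Cdh5) marks blood vessel endothelium and N-cadherin (Cdh2) marks nerve and mesenchyme.

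Levels are given as log2 of the background-subtracted array signal relative to the 75th percentile of the same array, so that 0 is the 75th percentile and 1 unit is a doubling. A gene was tested when its probe was well above background, as flagged by the scanner software, on all 4 arrays of at least 1 group. Differences are knockout minus control, with adjusted p-values from limma (two-sided; Benjamini-Hochberg over the 23238 tested genes), called at 0.05. A level is comparable between arrays for the same probe, and not between different probes.

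Epithelial identity genes were measured well on all arrays, and the markers of other tissues differed between the groups for some tissues. All 8 epithelial markers, with the intestinal genes Cdx1, Cdx2 and Vil1 among them, were well above background on all 8 arrays. By limma 0 of 8 was called, with 4 at an unadjusted p under 0.05, against 20.5% of all genes. Of these 4, Krt8, Krt18 and Krt19 were higher in the knockout without overlap (0.35, 0.45 and 0.47), and Cdx2 was lower (-0.24). Of 10 tested endocrine markers, 6 were lower on the knockout arrays (the hormone genes Gcg, Cck, Gip, Sst, Ghrl and Nts), and 10 of 12 glandular stomach markers were higher, as were 2 of 7 liver markers (Ttr and Fgb). The Rfx6 probe did not check the labels: its level was -2.93, -2.91, -2.98 and -3.74 on the control arrays and -2.32, -3.37, -3.11 and -2.25 on the knockout arrays (difference 0.38, SE 0.29, limma adjusted p = 0.503), and whether it lies in the deleted part is not given in the sources used here. The groups are therefore called by their labels. The 8 arrays were printed on 1 slide, which was scanned once. One row of the slide held 1 control and 3 knockout arrays and the other row 3 controls and 1 knockout. The number of arrays limits the precision.

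Of the 66 members, 42 could be tested and 4 passed the threshold. Cldn18, Cldn8 and Cldn4 were higher and Cldn19 was lower in the knockout. The 4 genes are 9.52% of the tested members, against 4.91% of all genes tested (1142 of 23238). Cldn18 entered the test through the knockout arrays alone. When a gene had to be well above background on all 8 arrays, 38 members were tested, and Cldn19, Cldn4 and Cldn8 were called. Of the 21863 genes tested in that way, 598 were called lower and 437 higher. In single directions, 2.32% of all genes were called higher and 2.59% lower. All 4 called members were claudins (4 of 16 tested). By limma, 0 of 11 tested connexins and 0 of 15 tested cadherins were called, with 3 connexins and 1 cadherin at an unadjusted p under 0.05, as were 8 claudins. Over all genes, 20.5% had an unadjusted p under 0.05. Most differences were small. Only Cldn18 differed by 1 log2 unit or more, and the other 41 tested members lay within 1 unit. The median difference was 0.16 over the members tested, 0.19 for claudins, 0.15 for connexins and 0.16 for cadherins, and -0.05 over all genes tested.

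**Figure D1:**
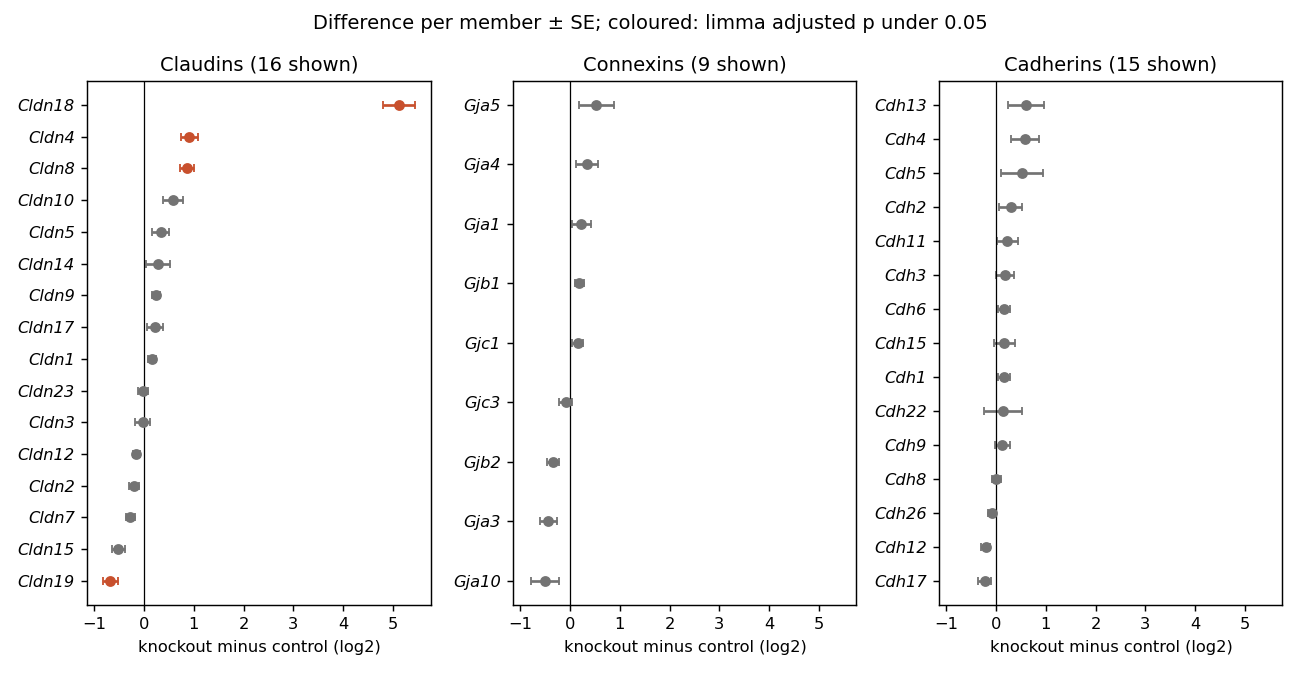
Difference between knockout and control (log2, horizontal axis) with its standard error for 40 of the 42 members tested, in 3 panels by family; coloured points passed the threshold. Cldn18 stands far to the right at a fitted 5.12, which rests on control signals not well above background, and the other members shown lie between -0.68 and 0.91.

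The share of genes whose groups did not overlap was close to that of all genes. In 6 of 42 members (14.3%) every knockout value was above, or every knockout value below, the controls, against 14.7% of all genes tested. In these 6, which were all claudins, 4 were higher (Cldn18, Cldn8, Cldn4 and Cldn9; 5.41% of all genes) and 2 lower (Cldn19 and Cldn15; 9.26% of all genes). The median SD of the members between arrays of 1 group was 0.23 on control and 0.25 on knockout arrays, against 0.17 and 0.15 over all genes tested.

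Cldn18, a claudin known from stomach epithelium and, as another isoform, from lung, was detected on every knockout array and on no control array. Its level was -6.89, -6.13, -6.83 and -5.88 on the control arrays, where its probe was not well above background, and -0.87, -1.71, -1.92 and -0.76 on the knockout arrays. Knockout arrays 1 and 4 were the higher and arrays 2 and 3 the lower of the 4, and no knockout value came near a control value. Because the control signal was not measured well, it was replaced by a floor, and against this floor the gene was 9.80-fold higher in the knockout. For the floor, each control array was given the signal of its dimmest probe well above background or the probe's own, whichever was higher. This is not a strict bound, because brighter probes can lack the flag. Cldn10 on control 4 was at -4.10, above the -4.31 of that array's dimmest flagged probe, and was not flagged. The limma adjusted p was 6.2e-05, and a gene that is detected in 1 group alone could enter the test only by differing in this way. Cldn18 was called in all 19 alternative analyses that tested it. The fitted difference of 5.12 fell to 1.93 with normexp background correction and to 2.26 in the authors' series matrix, which is not background-subtracted, and it was 5.43 and 5.41 within the slide rows.

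The Cldn18 probe lies in an exon at chromosome 9, 99592601 to 99592660 (mm9), and starts at base 1403 of its transcript. Its sequence begins as follows.
Cldn18 probe: ataataatgaacaccacttaaagaaagaat
These are the first 30 of its 60 bases, shown because they fix what was measured. They belong to a stretch that 4 RefSeq transcripts of Cldn18 share, so the array cannot tell the isoforms apart. RefSeq lists transcription starts for Cldn18 at separate positions, and the 250 bases before each start are given here on GRCm38.p6, on the minus strand, for the gene with the clearest gain.
Cldn18 start A, chr9:99717268-99717517: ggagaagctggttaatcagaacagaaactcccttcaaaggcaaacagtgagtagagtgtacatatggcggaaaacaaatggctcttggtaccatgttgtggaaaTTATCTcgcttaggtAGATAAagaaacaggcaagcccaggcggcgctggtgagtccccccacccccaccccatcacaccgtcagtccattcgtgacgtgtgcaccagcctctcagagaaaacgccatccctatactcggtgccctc
Cldn18 start B, chr9:99710064-99710313: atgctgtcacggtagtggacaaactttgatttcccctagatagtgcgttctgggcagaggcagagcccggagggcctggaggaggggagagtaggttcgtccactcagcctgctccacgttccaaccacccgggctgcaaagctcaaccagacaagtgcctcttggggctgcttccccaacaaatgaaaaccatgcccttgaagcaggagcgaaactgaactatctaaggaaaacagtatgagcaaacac
Capitals mark matches to 1 of 4 motifs that were searched on both strands: AGATAA, bound by GATA factors; TGTTTAC, bound by forkhead factors; GTTGCC, part of the RFX motif; and TGACTCA, bound by AP-1. None of them contains another. Start A held AGATAA on each strand, beginning 131 and 146 bases before the start, and start B held none of the 4. For scale, AGATAA was found in 9.99% of 32851 mouse promoter windows of this length and in 6.90% of the 58 windows found for 44 of the 66 members. A match is a description of the letters and not a binding site.

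The rise of Cldn18 stood beside a wide rise of genes of the glandular stomach. Gkn2, which encodes a secreted gastrokine, was at -6.06, -6.28, -6.21 and -5.09 on the control arrays and at 6.97, 6.07, 5.61 and 7.08 on the knockout arrays. Vsig1, a junctional adhesion protein of stomach epithelium, was at -6.79, -6.11, -7.04 and -5.05 on control arrays and at 2.01, 1.12, 0.98 and 1.88 on knockout arrays. In these 2 genes, as in Cldn18, knockout arrays 1 and 4 were above arrays 2 and 3, but other called markers differed: Cblif, Atp4a and Atp4b, genes of acid- and factor-secreting cells, were lowest on knockout 4 (1.58, -1.50 and 1.84). Over the whole list of 12 markers, 10 were higher, and the summed level (in multiples of the 75th percentile signal) was 1.01 to 6.83 on the control arrays and 394 to 730 on the knockout arrays. Gkn2, Vsig1, Cblif (gastric intrinsic factor) and Atp4a (the gastric proton pump) were well above background on no control array. Muc5ac and Pgc were not called. Tff1, a trefoil peptide of surface mucous cells, was detected on control arrays 3 and 4 (levels -2.60 and 1.28), on which Cldn18 was not. In RNA from whole tissue, more cells of a type and more RNA per cell cannot be told apart, and the part of stomach cells in the Cldn18 value was not tested.

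Cldn8, a claudin known for sealing tight junctions of colon and kidney tubule, was higher on every knockout array. Its level was 2.62, 2.51, 2.56 and 2.35 on the control arrays and 3.04, 3.40, 3.35 and 3.71 on the knockout arrays. The controls lay close together, and the lowest knockout value was clear of the highest control. The difference was 0.87 (SE 0.14, 1.82-fold, limma adjusted p = 0.0090). It was 0.87 in one slide row and 0.57 in the other, and it passed the threshold with each array left out in turn. The probe lies at chromosome 16, 88561135 to 88561194 (mm9), and starts at base 2234 of the transcript, with the first 30 bases:
Cldn8 probe: aaagatgttgtccatatgtatttcaactcc
They are shown to identify the transcript whose level rose.

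Cldn4, a sealing claudin and a receptor for an enterotoxin of Clostridium, was also higher in the knockout. It stood at -0.81, -1.54, -1.52 and -1.27 on the control arrays and at -0.44, -0.13, -0.38 and -0.56 on the knockout arrays. Control 1 was the highest control and lay next to the lowest knockout value, knockout 4. The difference was 0.91 (SE 0.17, 1.87-fold, limma adjusted p = 0.0204), and the second Cldn4 probe gave 0.74. The call depended on the arrays included. Without control 3 the adjusted p was 0.0551, without knockout 1 it was 0.0534 and without knockout 2 it was 0.0671. The difference was 0.45 in the slide row with 1 control array and 1.00 in the other row, and 0.73 with the row as a block (limma adjusted p = 0.0605).

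The Cldn4 probe lies at chromosome 5, 135421347 to 135421406 (mm9), from base 1398 of the transcript, and its first 30 bases are given with the 250 bases before the start of the gene (GRCm38.p6, minus strand), since the window held more than 1 motif match.
Cldn4 probe: accctactaatgaatttctgtagagtggat
Cldn4 upstream, chr5:134946935-134947184: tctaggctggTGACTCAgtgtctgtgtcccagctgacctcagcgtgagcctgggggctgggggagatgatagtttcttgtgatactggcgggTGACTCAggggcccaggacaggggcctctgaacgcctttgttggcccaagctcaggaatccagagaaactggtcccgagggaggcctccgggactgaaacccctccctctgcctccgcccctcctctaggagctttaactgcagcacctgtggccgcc
The window held 2 copies of TGACTCA (capitals), which begin 240 and 158 bases before the start. TGACTCA was found in 4.46% of all windows and in 5.17% of member windows. Of the other motifs, TGTTTAC was found in 3.17% of all and 0 of 58 member windows. GTTGCC, the RFX part motif, was found in 10.4% of all windows, 5.17% of member windows and none of the 5 windows of called members. These 5 windows belong to Cldn18, Cldn4 and Cldn19, and Cldn8 had no window to search. So few windows cannot show a lack of the motif.

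Cldn19, known from the kidney and from Schwann cells, was the 1 member called lower, at a low level. It was at -3.47, -3.23, -3.24 and -3.45 on the control arrays and at -4.06, -4.04, -3.63 and -4.37 on the knockout arrays. All 4 knockout values were below the controls, with knockout 3 the closest. The difference was -0.68 (SE 0.15, limma adjusted p = 0.0374). Of all 20 alternative analyses this call was kept in 6, and the adjusted p ranged from 0.011 to 0.116. Leaving out any array other than knockout 3 ended it. The adjusted p was then 0.0830, 0.0724, 0.0937 and 0.0666 without controls 1 to 4, and 0.105, 0.110 and 0.0591 without knockouts 1, 2 and 4. Cldn16, its partner in the kidney, was well above background on 1 knockout array and was not tested. The Cldn19 probe lies at chromosome 4, 118929768 to 118929827 (mm9), from base 503 of the transcript, and begins:
Cldn19 probe: ttgactgctgtctcctggtatgctaccctg
It identifies the transcript; the windows before its RefSeq starts held none of the 4 motifs.

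**Figure D2:**
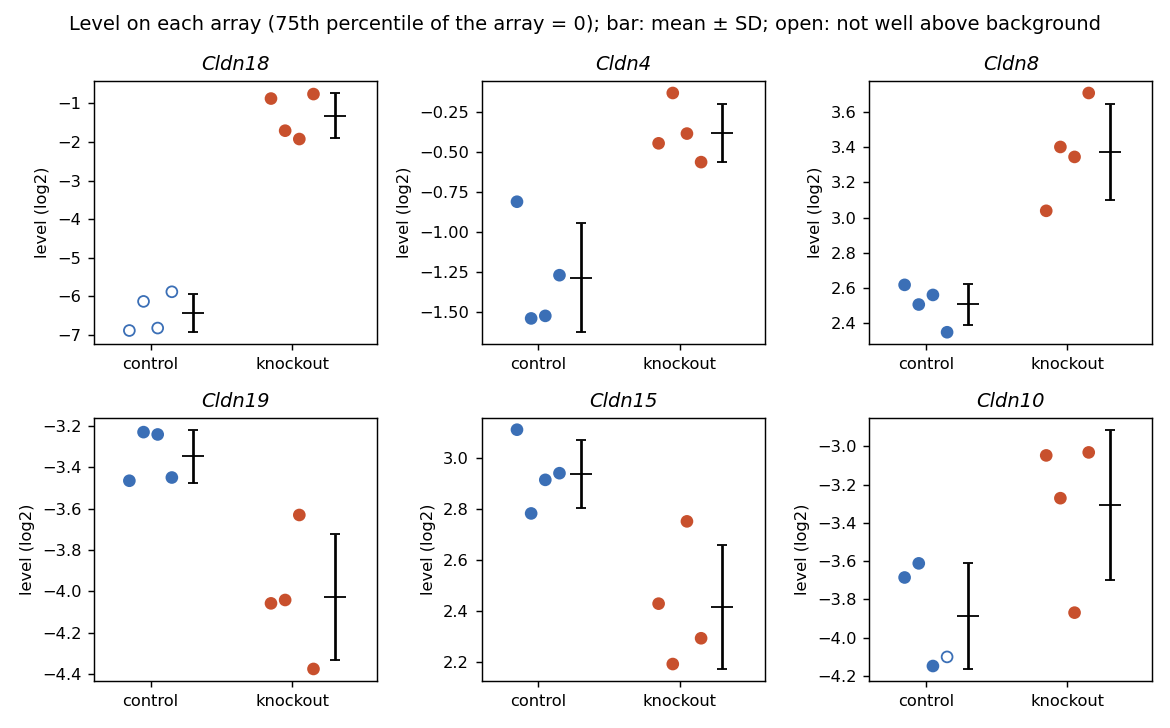
Level on each array (log2, vertical axis, a separate scale per gene) of the 4 called claudins and of Cldn15 and Cldn10, which missed the threshold; points are arrays, bars are mean ± SD of 4 arrays, and open points were not well above background. The groups are apart in all panels but that of Cldn10, where knockout 3 at -3.87 falls among the controls.

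Cldn15, Cldn7, Cldn2, Cldn12 and Cldn3, all well above background on all 8 arrays, stayed within 1 log2 unit, and none passed the threshold. Cldn8 and Cldn4, given above, were also well above background on every control array, and they were called. Cldn15, the sodium pore of the small intestine, was at 3.11, 2.78, 2.92 and 2.94 on the control arrays and at 2.43, 2.19, 2.75 and 2.29 on the knockout arrays. The groups did not overlap, with knockout 3 just under control 2. The difference was -0.52 (SE 0.13, limma adjusted p = 0.059). Without knockout 3 it was -0.63 (adjusted p = 0.0192). Cldn7, an abundant claudin of the lateral membrane, was at 6.80, 6.49, 6.74 and 6.72 against 6.34, 6.35, 6.57 and 6.38, a difference of -0.28 (SE 0.09, limma adjusted p = 0.144) with overlapping groups. Cldn2, which forms a pore for cations and water, differed by -0.21 and Cldn12 by -0.16 (limma adjusted p = 0.265 and 0.287). Cldn3 differed by -0.03, with a standard error of 0.16 (adjusted p = 0.931), and changed sign between analyses.

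The remaining claudins gave small differences that were not called. Cldn10, which forms ion pores in kidney, was at -3.69, -3.61, -4.15 and -4.10 on control arrays and at -3.05, -3.27, -3.87 and -3.03 on knockout arrays. Knockout 3 alone reached into the control range. The difference was 0.58 (SE 0.21, limma adjusted p = 0.158), and its probe was well above background on 3 of 4 control arrays. Cldn9, known from the inner ear, did not overlap between the groups, but its difference was only 0.24 (SE 0.09, adjusted p = 0.169). Cldn1, a claudin of the skin barrier, differed by 0.16, Cldn17 by 0.22, Cldn14 by 0.28 and Cldn23 by -0.02, with adjusted p-values from 0.308 to 0.920.

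Claudin neighbours on the chromosome did not share a call. Probes of 16 members lay within 100 kb of another member, in 6 clusters. Cldn4 (0.91) lay 41.9 kb from Cldn3 (-0.03) and 30.6 kb from Cldn13, which was well above background on no array. Cldn8 (0.87) lay 55.0 kb from Cldn17 (0.22). Cldn6 and Cldn9 lay 1.14 kb apart, and Cldn6 was well above background on no array while Cldn9 was on all 8. The differences between neighbours were not tested.

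No connexin was called, and 8 of the 19 could not be tested. Gjb6, a skin and cochlear connexin beside Gjb2 on chromosome 14, was at -7.27, -6.55, -7.25 and -6.65 on control arrays and at -4.43, -3.19, -5.42 and -5.28 on knockout arrays. Its knockout values all exceeded its control values, but it was well above background on knockouts 2 and 4 alone, of which knockout 2 was the higher, and was not tested. Gjb5, another connexin of skin, was well above background on no array.

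Some genes of squamous epithelium, which lines the forestomach, were also highest on knockout 2, and others were not. The basal keratin gene Krt5 was at -2.92, -2.62, -2.81 and -2.69 on the control arrays and at 1.15, 2.12, -0.76 and -1.92 on the knockout arrays (limma adjusted p = 0.066). Krt15 was at -2.51, -2.14, -2.65 and -1.88 on control arrays and at 2.35, 3.12, 0.35 and -0.38 on knockout arrays (limma adjusted p = 0.021). Both were highest on knockout 2 and then knockout 1, whereas Cldn18 was highest on knockouts 4 and 1. Of 10 tested markers of this list, 3 were called higher (Krt13, Krt15 and Sprr1a). The summed level was 12.5 to 15.2 on control arrays and 16.1 to 34.0 on knockout arrays, and Krt4 and Sprr3 were well above background on no control array. Krt13 was highest on knockout 1 (2.20), Krt14 on control 3 (1.19) and Ivl on knockout 3 (-3.45). Trp63 was lower on every knockout array (2.87 to 3.00) than on any control (3.01 to 3.11), though not called. The part of squamous cells in the Gjb6 values was not tested.

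**Figure D3:**
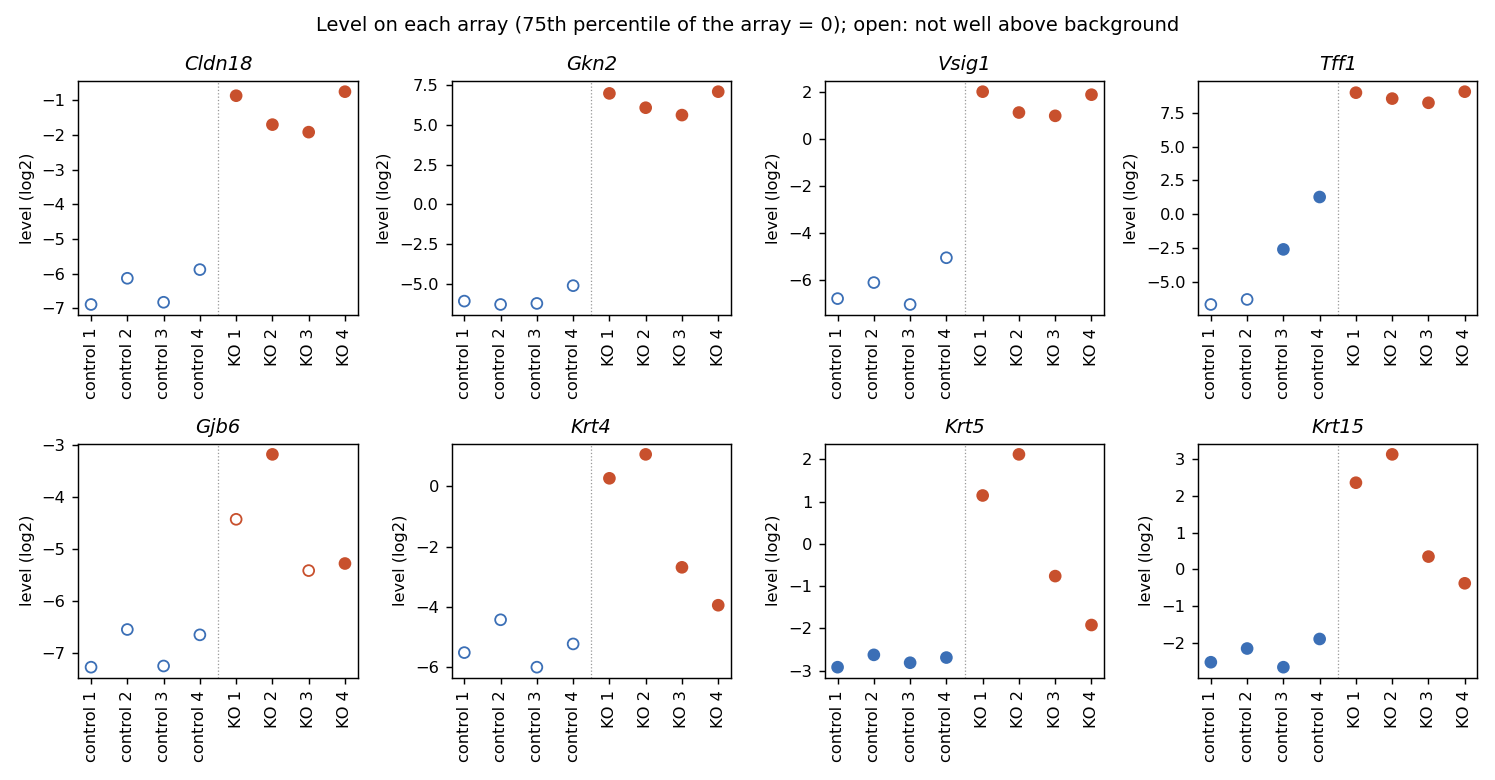
Level on each of the 8 arrays (log2, vertical axis, a separate scale per gene) of Cldn18 with 3 glandular stomach markers in the upper row and of Gjb6 with 3 squamous markers in the lower row; blue is control, red is knockout, and open points were not well above background. Cldn18 and the 3 markers drawn are highest on knockouts 1 and 4, an order that Cblif, Atp4a and Atp4b did not share. Gjb6, Krt4, Krt5 and Krt15 are highest on knockout 2, which Krt13, Krt14 and Ivl of the same list were not. On knockout 4, where the Gjb6 probe was well above background, Krt4, Krt5 and Krt15 had their lowest knockout values.

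Connexins of gut epithelium and muscle gave small differences, and none was called. Gjb1, the main connexin of liver and a connexin of intestinal epithelium, was at 5.32, 5.10, 5.23 and 5.22 against 5.33, 5.28, 5.49 and 5.50. Its difference was 0.18 (SE 0.09, limma adjusted p = 0.276), and quantile normalization and the authors' series matrix values, where signals are scaled to 1 common distribution, did call it. The summed level of the 7 liver markers was 165 to 270 on control arrays and 285 to 338 on knockout arrays, and its part in the Gjb1 value was not tested. Gjb2 was at 2.01, 1.67, 1.99 and 1.95 against 1.62, 1.59, 1.77 and 1.28, a difference of -0.34 (SE 0.12, limma adjusted p = 0.163) with overlapping groups. Its neighbour Gja3, a lens connexin, differed by -0.44 (limma adjusted p = 0.196) at a level near background, with 3 of 4 knockout arrays well above it. Gja1, widespread in muscle and mesenchyme, differed by 0.22 and Gjc1, known from smooth muscle and heart, by 0.15, with adjusted p-values of 0.557 and 0.461. Gjc3, a connexin of myelinating glia, differed by -0.09 and changed sign between analyses. Gja10, known from retina, gave a difference of -0.51 (SE 0.28, limma adjusted p = 0.347), and control 4 (-2.29) was well above the other controls (-3.67 to -3.41).

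The epithelial cadherins overlapped between the groups and none was called. Cdh1 was at 3.75, 3.32, 3.73 and 3.78 on control arrays and at 3.83, 3.88, 3.89 and 3.60 on knockout arrays. Control 2 was apart below the rest. The difference was 0.16 (SE 0.12, limma adjusted p = 0.510). Cdh17, a cadherin of intestinal epithelium without catenin binding, was at 4.28, 3.80, 4.32 and 4.19 against 3.85, 3.90, 4.14 and 3.78, a difference of -0.23 (SE 0.13, limma adjusted p = 0.369). Cdh3 (P-cadherin, of basal epithelium) differed by 0.19 and Cdh26 by -0.08 (limma adjusted p = 0.602 and 0.621). These p-values do not show that the levels were equal.

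The 15 tested cadherins had differences from -0.23 to 0.60, 12 of them positive. The smallest adjusted p was 0.241, for Cdh12, a cadherin known from brain, which differed by -0.21. Cdh6, Cdh8, Cdh9 and Cdh15, known from kidney, brain or muscle, differed by 0.17, 0.00055, 0.13 and 0.16. Another 9 cadherins could not be tested. Of these, Cdh7, Cdh19, Cdh23 and Cdh24 were well above background on no array, and Cdh10, Cdh16, Cdh18, Cdh20 and Cdh29 were on 1 to 5 arrays. The gene that the file calls Cdh29 has the current symbol Cdhr4, and the array holds another probe under that name. The first probe was well above background on 1 control and 1 knockout array. The second, at chromosome 9, 107897947 to 107898006 (mm9), was so on no control and all 4 knockout arrays. Against a floor set as for Cldn18, it was 2.44-fold higher (limma adjusted p = 0.0041). Like Cldn18, it entered the test through the knockout arrays alone, so this p-value adds no support of its own. The first probe was too dim to be tested, so the result for this gene rests on the second probe alone.

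Vascular members varied over the arrays more than between the groups. VE-cadherin (Cdh5), the adhesion protein of endothelial junctions, was at 0.07, -0.49, 0.94 and 1.00 on the control arrays and at 1.13, 1.46, 1.14 and -0.16 on the knockout arrays. Controls 1 and 2 and knockout 4 were low and the other 5 arrays high, across the group labels. The difference of 0.51 had a standard error of 0.42 (limma adjusted p = 0.534). Cldn5, the sealing claudin of endothelium, was at 0.81, 0.82, 1.12 and 1.26 against 1.42, 1.62, 1.41 and 0.90, a difference of 0.33 (SE 0.17, limma adjusted p = 0.307). The arterial connexin gene Gja4 was at -0.43, -0.43, 0.11 and 0.11 against 0.35, 0.48, 0.31 and -0.42. Its fellow Gja5 was at -2.36, -2.04, -1.50 and -1.28 against -1.09, -0.72, -1.04 and -2.23. In all of these genes, knockout 4 stood with controls 1 and 2.

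The same 3 arrays were low for endothelial and mesenchymal markers. The mean level of 10 endothelial markers was 0.27, 0.26, 0.63 and 0.65 on the control arrays and 0.73, 0.91, 0.79 and 0.35 on the knockout arrays, with 0 of 10 called by limma (1 at an unadjusted p under 0.05). Their summed level was 46.8 to 57.6 on control and 53.6 to 66.1 on knockout arrays. That of 7 fibroblast and mesenchyme markers was 3.42, 3.33, 3.84 and 3.99 against 4.01, 4.22, 3.98 and 3.42, with 0 of 7 called (0 at an unadjusted p under 0.05) and sums of 107 to 188 and 117 to 215. Cdh2 was at 0.23, -0.14, 0.69 and 0.82 against 0.87, 0.95, 0.72 and 0.24, and Cdh11, the cadherin of mesenchyme, at -0.76, -0.76, -0.18 and -0.16 against -0.11, 0.08, -0.23 and -0.72. Cdh13, a cadherin anchored by a lipid tail, and Cdh22 had the same low arrays. The part of tissue makeup in these values was not tested. These genes were set together after their values were seen.

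**Figure D4:**
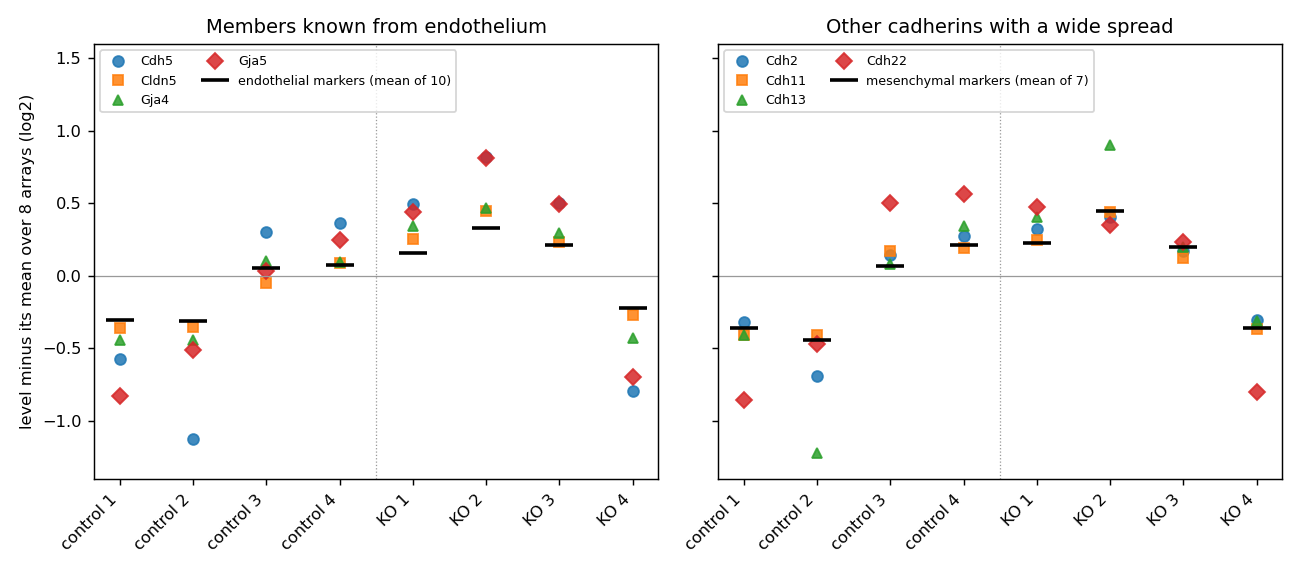
Level of each gene minus its own mean over the 8 arrays (log2, vertical axis) for Cdh5, Cldn5, Gja4 and Gja5 on the left and Cdh2, Cdh11, Cdh13 and Cdh22 on the right; black dashes are the mean of 10 endothelial or 7 mesenchymal markers, treated the same way. Controls 1 and 2 and knockout 4 lie below 0 and the other arrays mostly above it, in both groups.

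The calls among partner genes are set against 4.91% of all genes tested by limma (20.5% at an unadjusted p under 0.05). Of 21 tested tight junction partners, 1 was lower by limma: Igsf5, a junctional adhesion protein, was at 3.60, 3.62, 3.51 and 3.52 on control arrays and at 3.18, 2.87, 3.15 and 3.24 on knockout arrays (difference -0.45, SE 0.09, limma adjusted p = 0.0307). Of 14 adherens junction partners, 1 was higher. Nectin4, a nectin of epithelium and skin, was well above background on no control and all 4 knockout arrays. Against a floor set as for Cldn18, it was 2.05-fold higher (limma adjusted p = 0.0068), but its second probe was detected on no array. Nectin4, too, entered the test through the knockout arrays alone, so its p-value adds no support of its own. These 2 lists had 2 and 1 genes at an unadjusted p under 0.05, and list medians of -0.02 and 0.08.

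Among the 17 desmosome genes, 9 were tested and 0 was called by limma (3 at an unadjusted p under 0.05). Of pannexins, which are channel proteins related in form to connexins, 1 was tested and was not called (0 at an unadjusted p under 0.05). Periplakin (Ppl), a linker of the desmosome plaque, was at -1.04, -1.38, -1.36 and -1.42 on control arrays and at -0.14, 0.24, -1.07 and -0.98 on knockout arrays. Knockout 2 was the highest and knockout 1 the next, as for Krt5, and knockouts 3 and 4 were near the controls. The difference was 0.82 (SE 0.28, limma adjusted p = 0.143). The other desmosome genes at an unadjusted p under 0.05 were Evpl and Pkp2, both without overlap between the groups. Evpl was higher (0.57, limma adjusted p = 0.122) and Pkp2 was lower (-0.25, limma adjusted p = 0.196). Of 11 tested cadherin relatives with other symbols, 2 were higher: Cdhr4, given above, and Celsr1, a planar polarity cadherin. Over all genes 2.32% were called higher. Cdhr4 entered the test through the knockout arrays alone, so it adds nothing to that comparison. Celsr1 was at -0.88, -1.33, -0.86 and -0.84 on the control arrays and at 0.47, 0.48, 0.09 and 0.27 on the knockout arrays. All knockout values were above all controls, and the difference was 1.30 (SE 0.14, 2.47-fold, limma adjusted p = 0.0014).

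A further 24 members could not be tested. Of these, 11 were well above background on no array (Cldn6, Cldn13, Cldn22, Cldn24, Gja6, Gjb5, Gjd4 and the 4 cadherins named above). The other 13 were detected on some arrays of 1 or both groups. Cldn11, known from myelin and testis, was on 3 control and 3 knockout arrays. Gjd2, the neuronal connexin, and Gjd3 were each on 1 control and 3 knockout arrays, with overlapping levels. Cldn20 was on 1 control array. A missing flag shows that the signal was not well above background on that array, and not that the gene was silent.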

How the data were processed

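The authors deposited 8 one-colour scanner tables with an intensity per spot, which per the file headers had background subtracted by Feature Extraction 10.10.1.1 and probes placed on mm9. Per the labels' protocols, RNA was amplified and labelled with cyanine 3. The deposited series matrix holds an intensity per spot that matches quantile-normalized values without background subtraction. Each column had a median of 129.625. Its sorted values lay within 0.05 units of the averaged sorted spot medians, the brightest spots aside, so its scale is linear and it is not centred. The Spearman correlation with the spot medians of the same array was 1.00.

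Each array held 62976 spots. The 3671 control spots and the spots marked as outliers (153 to 355 an array) were left out, and spots of a probe were averaged (55681 probes). The log2 processed signal minus the array's 75th percentile (636 to 741 units) was used, and 57.4% to 67.1% of probes were well above background. A gene was represented by its probe with the highest mean signal. Names came from the file, and were updated through RefSeq symbols (26246 probes), accessions (2863) or synonyms (491), while 26006 probes kept the name of the file and the 75 member probes were named by it. Promoter sequences are RefSeq's (GRCm38.p6).

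Groups were compared over all 8 arrays with limma 3.58.1 (lmFit, eBayes) in R 4.3.3, with no covariate. The alternatives were quantile normalization, normexp background correction (offset 50), the series matrix values, median centring, a filter on all 8 arrays or none, other rules for probes, a block for slide row or for replicate number, a trended robust prior, array weights and leaving out each array. On simulated data with 200 of 23238 genes changed, limma called 73% of 2-fold and 96% of 4-fold changes. Of the calls 3.98% were false, and 0 calls were made with none changed. The simulated noise was normal, independent between genes and of the control SD in both groups. These rates therefore do not cover genes that vary together over the arrays or vary more in the knockout.

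Members past the threshold, differing by 1 log2 unit or more, or detected in 1 group alone were named with every value. Others were given by family, and further genes near the threshold or varying together were chosen after their values were seen. The members, marker lists and partner lists were chosen with earlier results of these data known. Protein sequences were not used here, and some members are in the counts but not reported singly here.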

Additional observations from a re-analysis of the deposited data

Results flagged for a closer look

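In 80 sets of 4 arrays (40 tested members in each group), 1 held an array far from the other 3 by Dixon's test, or 1.25%, where chance gives about 1 in 20. Cdh1 on control 2 was at 3.32, while the other controls lay between 3.73 and 3.78. The summed level of the 8 epithelial markers was also lowest on control 2 (360, against 480 to 501 on the other controls). No cause was tested for either.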

How the results depend on the processing

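The median difference of the members (0.16) kept its sign in all 20 alternatives and ran from 0.08 with normexp to 0.22 with median centring, and from 0.11 to 0.19 with 1 array left out. Of the 42 tested members, 35 kept their direction in every alternative that tested them, and 7 did not (Cdh8, Cdh15, Cdh22, Cldn3, Cldn23 and Gjc3 among them), none of them called. The count of members called lower was 2 with normexp and 0 with quantile normalization, median centring, no filter, the series matrix values and the slide row as a block; the call of Cldn19 was lost there, and for no filter and the row block also that of Cldn4. Members called lower ranged from 0 to 2 and higher from 2 to 4 with 1 array left out. Over all genes, 602 were called lower and 540 higher. Lower calls were 252 with median centring (541 higher, so 68.2% higher against 47.3%), 201 without a filter (297 higher) and 1131 with array weights. With 1 array left out they ran from 233 to 590, and higher calls from 347 to 511.

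The replicate numbers did not pair the samples: same-numbered samples deviated with correlations of -0.069, -0.174, 0.072 and -0.409. With the replicate number as a block, 148 genes were called lower and 266 higher, with 0 members lower and 1 higher (Cldn18). The causes of these shifts were not tested. Few arrays and signals near background limit the dim members most.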
